A study of Rattus norvegicus with 6 samples.

Results

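The matrix metalloproteinases (MMPs) and their tissue inhibitors (TIMPs) were followed in palmitate-treated rat heart cell cultures carrying 1 of 2 adenoviral vectors. The genes were chosen by name from a list of 10, and 9 of them were found among the 18077 rows of the count tables: Mmp2, Mmp3, Mmp9, Mmp10, Mmp11, Mmp13, Mmp14, Timp1 and Timp3. Timp2 was not analysed here. Polyadenylated RNA was sequenced from 3 libraries labelled Ad-RNF128, whose vector is named for the RING-type ubiquitin ligase RNF128 (written RNF28 in 1 place of the protocol), and from 3 libraries labelled Ad-GFP, whose vector is named for green fluorescent protein. Both groups were primary cells of rat pups aged 1 to 3 days, described as cardiomyocytes, both received 500 µM palmitic acid for 24 h, and the protocol gives harvest after 48 h. The promoter that drives each transgene, the strain, and whether replicates came from separate cultures are not given in the sources used here. The p-values given here accordingly measure the spread between these libraries alone, which may be technical.

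MMPs are zinc-dependent endopeptidases that are made as inactive proenzymes and cut collagens, proteoglycans and other proteins outside the cell. TIMPs are small secreted proteins that block MMPs by occupying the active site, and the balance of proteases and inhibitors sets how fast matrix is turned over in the injured heart, where fibroblasts are a main source of both. The membrane-bound enzyme encoded by Mmp14 also activates the proenzyme encoded by Mmp2 at the cell surface.

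Library totals ran from 17099149 to 21708973 counts in the libraries labelled Ad-RNF128 and from 16352843 to 21332585 counts in Ad-GFP. Reads on the rat Rnf128 gene numbered 1 to 3 per library labelled Ad-RNF128 and 0 to 2 per Ad-GFP library, so overexpression of that gene was not seen in these counts. Another RING-type ubiquitin ligase gene, Rnf157, was at 1923, 2553 and 2089.8 CPM (a gene's count scaled to a library total of 1000000) in Ad-RNF128 replicates 1 to 3, against 39.6 and 40.4 CPM in Ad-GFP replicates 2 and 3 and 22.3 CPM in Ad-GFP replicate 1, and thus set the libraries apart as their labels do. Whether the vector gave these reads was not tested, and the groups are named by their labels. Ad-GFP replicate 1 stood apart from every other library, with Spearman correlations over genes of 0.776 to 0.818 to the other 5, and its values are given apart from those of the other controls. Ad-RNF128 replicate 3 had almost no reads on several cardiomyocyte genes, with Myh6 at 0.104 CPM against 10.8 to 16 CPM in the other 5 libraries. The 7 cardiomyocyte markers measured summed to 34.9 to 110.5 CPM in the libraries labelled Ad-RNF128, 389.7 and 389 CPM in Ad-GFP replicates 2 and 3 and 67.1 CPM in Ad-GFP replicate 1. Tnnt2 made most of this gap, at 57.4, 42.3 and 34 CPM in Ad-RNF128 replicates 1 to 3, against 342 and 350.4 CPM in Ad-GFP replicates 2 and 3 and 13.3 CPM in Ad-GFP replicate 1, and it was the single marker of the 7 called lower against Ad-GFP replicates 2 and 3. The other 6, summed after their values had been seen, came to 53.1, 38.4 and 0.883 CPM in Ad-RNF128 replicates 1 to 3, against 47.4 and 38.4 CPM in Ad-GFP replicates 2 and 3 and 53.8 CPM in Ad-GFP replicate 1. The 8 fibroblast markers, of which Tcf21 had no read in Ad-RNF128, summed to 5253 to 5790.3 CPM in the libraries labelled Ad-RNF128, 21539.9 and 22211 CPM in Ad-GFP replicates 2 and 3 and 1453 CPM in Ad-GFP replicate 1. Among them Dcn, Lum, Pdgfra and Tcf21 had at most 2.86 CPM in any library. In Ad-RNF128 the 4 smooth muscle markers summed to 5019.9 to 5590.4 CPM. They came to 5239.9 and 5826 CPM in Ad-GFP replicates 2 and 3 and 4693 CPM in Ad-GFP replicate 1. The 4 skeletal myogenic markers measured summed to 39.6 to 43.7 CPM, against 89.4 and 91.6 CPM and 76.4 CPM in Ad-GFP replicate 1. Of these, Myod1 was at 25.3 to 63.3 CPM over the 6 libraries. The 5 endothelial markers summed to 6.8 to 7.78 CPM, against 4.76 and 4.55 CPM and 6.12 CPM. In such bulk samples fewer cells of a type and less RNA per cell cannot be told apart.

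Of the 9 genes, 6 had enough reads to be tested, and they did not move as a block. Against Ad-GFP replicates 2 and 3, the libraries labelled Ad-RNF128 had higher Mmp9 and Mmp11 and lower Mmp14, Mmp2 and Timp3, while Timp1 did not pass the test. In this comparison 56.9% of the 13173 genes tested passed an edgeR adjusted p of 0.05, 28.9% as higher and 28% as lower, so a count of 5 of 6 is to be read against a background where most genes passed. Mmp9 passed the filter on low counts only through the libraries in which it was high. The remaining genes, Mmp3, Mmp10 and Mmp13, had at most 11 reads in any library and were described by their counts.

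These 3 sparsely detected genes lie in the MMP gene cluster of rat chromosome 8, in the order Mmp13, Mmp12, Mmp3, Mmp10 and Mmp20 when only genes with a row are counted, and their promoters are shown because the reads of all 3 were found mostly in the libraries labelled Ad-RNF128. The 100 bases before each RefSeq transcription start (GRCr8, plus strand) are printed 5′ to 3′, with a match to the AP-1 motif TGANTCA in capitals. The windows are chr8:12782729-12782828 for Mmp13, chr8:12925181-12925280 for Mmp3 and chr8:12974607-12974706 for Mmp10.
Mmp13: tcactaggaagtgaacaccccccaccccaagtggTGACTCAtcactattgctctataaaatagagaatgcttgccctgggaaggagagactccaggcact
Mmp3: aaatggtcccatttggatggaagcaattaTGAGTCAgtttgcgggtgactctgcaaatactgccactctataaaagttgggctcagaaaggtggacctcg
Mmp10: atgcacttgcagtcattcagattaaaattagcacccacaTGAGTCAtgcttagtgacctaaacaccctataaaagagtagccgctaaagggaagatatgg

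AP-1 is the dimer of Fos and Jun proteins that binds this motif, which reads the same on both strands. The match begins at position -66 in Mmp13, -71 in Mmp3 and -61 in Mmp10, counted back from the start site. Within 250 bases before the start, 6.34% of the 33469 RefSeq promoters held the motif. Of the 9 genes, 6 had a promoter in that table, and the motif was found in those of Mmp3, Mmp10 and Mmp13 and in none of those of Mmp11, Timp1 and Timp3. It was also found in 2 of 8 promoters of other MMP and TIMP genes with a row, Mmp12 and Mmp20, which belong to the same cluster and had at most 4 reads in any library. Other motifs searched on both strands were GGGCGG (a GC box, in 30.5% of promoters) and TTCNNNGAA (a STAT site, in 7.67%). The GC box was found in the promoters of Mmp11, Timp1 and Timp3 and in none of Mmp3, Mmp10 and Mmp13, and the STAT site in none of these 6. An interferon response element was searched as well and is not reported here. The motifs were chosen after the counts had been seen, and a match describes the letters only.

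Mmp13 (ENSRNOG00000008478), the main interstitial collagenase of rodents, had 9, 7 and 8 reads in Ad-RNF128 replicates 1 to 3, against 0 reads in each of the 3 Ad-GFP libraries. The groups did not overlap, with or without Ad-GFP replicate 1. Genes without a read were, however, fewer in Ad-RNF128 replicates 1 to 3 (1487, 1190 and 1458) than in Ad-GFP. Ad-GFP replicates 2 and 3 had 2288 and 2200 such genes, and Ad-GFP replicate 1 had 3551. The share of other untested genes with the pattern of Mmp13 is not given here. A count of 0 allows up to 0.141 to 0.183 CPM per Ad-GFP library (3 reads). Over the group the Ad-RNF128 level was 7.68-fold that of 3 reads in all Ad-GFP libraries together, or 5.43-fold with Ad-GFP replicates 2 and 3 alone. These folds take the Ad-RNF128 reads as exact and are not lower limits.

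Mmp3 (ENSRNOG00000032626), stromelysin 1, had 2, 5 and 11 reads in Ad-RNF128 replicates 1 to 3, against 0 and 0 in Ad-GFP replicates 2 and 3 and 1 in Ad-GFP replicate 1. Its level was 4.07-fold that of 3 reads in Ad-GFP replicates 2 and 3, with the Ad-RNF128 reads taken as exact. The ratio to all 3 Ad-GFP libraries was 17.3 with a 95% counting interval of 2.73 to 720. Ad-RNF128 replicate 3 held most of these reads.

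Mmp10 (ENSRNOG00000032832), stromelysin 2, had 1, 5 and 8 reads in Ad-RNF128 replicates 1 to 3, against 0 and 0 in Ad-GFP replicates 2 and 3 and 5 in Ad-GFP replicate 1. With Ad-GFP replicate 1 the groups overlapped and the counting interval of the ratio, 0.915 to 9.54 around 2.69, included equality. Without it the level was 3.17-fold that of 3 reads, with the Ad-RNF128 reads taken as exact. Both stromelysins are close paralogs, and the sources used here do not say how reads matching both were counted.

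Without a filter on low counts, edgeR called all 3 of these genes higher against Ad-GFP replicates 2 and 3 (adjusted p of 0.00106 for Mmp13, 0.00745 for Mmp3 and 0.0183 for Mmp10). In that fit 21.8% of 18021 genes were called higher. The filter kept Mmp3 when 1 control was left, and its call then ended, with an adjusted p of 0.0564 without Ad-GFP replicate 2 and 0.0675 without Ad-GFP replicate 3. None of the 3 was called against all 3 Ad-GFP libraries.

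Mmp9 (ENSRNOG00000017539), gelatinase B, a protease of type IV collagen and denatured collagen, had 19, 32 and 26 reads in Ad-RNF128 replicates 1 to 3, against 2 and 0 reads in Ad-GFP replicates 2 and 3. Ad-GFP replicate 1, however, held 27 reads. In CPM the levels were 1.11, 1.47 and 1.35 in Ad-RNF128 replicates 1 to 3, against 0.111 and 0 in Ad-GFP replicates 2 and 3 and 1.65 in Ad-GFP replicate 1, the highest library. Against Ad-GFP replicates 2 and 3 Mmp9 reads were 26.1 times as frequent (counting interval 6.99 to 220), and edgeR gave a log2 change of 4.39 ± 0.65 (SE) with an adjusted p of 4.44e-05. The rise rested on leaving out Ad-GFP replicate 1, because over all 6 libraries the log2 change was -0.01 ± 1.89 with an adjusted p of 1. Leaving out Ad-GFP replicate 2 instead, so that Ad-GFP replicate 3 with 0 reads was the sole control, gave 7.67, and leaving out Ad-GFP replicate 3 gave 3.38.

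Mmp9 is abundant in neutrophils and macrophages. The 3 neutrophil markers measured summed to 0.0461 to 0.26 CPM in the libraries labelled Ad-RNF128, 0 and 0 CPM in Ad-GFP replicates 2 and 3 and 0.0612 CPM in Ad-GFP replicate 1. The 6 macrophage markers summed to 21.8 to 22.2 CPM in the libraries labelled Ad-RNF128, 16.7 and 16.6 CPM in Ad-GFP replicates 2 and 3 and 34.4 CPM in Ad-GFP replicate 1, most of it Cd14. Of the 3 macrophage markers tested, 2 rose and 0 fell against Ad-GFP replicates 2 and 3, where 28.9% of all genes tested rose. Csf1r and Cd68 passed the filter on low counts only through the libraries in which they were high, so calls of them are no support. Csf1r, the receptor of a macrophage growth factor, was at 2.22, 2.67 and 1.97 CPM in Ad-RNF128 replicates 1 to 3, against 0.388 and 0.469 CPM in Ad-GFP replicates 2 and 3 and 0.245 CPM in Ad-GFP replicate 1. Cd68 was at 0.702, 1.11 and 0.883 CPM, against 0.222 and 0.375 CPM and 0.367 CPM in Ad-GFP replicate 1. In CPM both markers were thus higher beside Mmp9 against Ad-GFP replicates 2 and 3. In Ad-GFP replicate 1 they were low in CPM while Mmp9 was not, and their levels under other scaling are not given here. Cd14 was at 18.8, 18.3 and 19.2 CPM in Ad-RNF128 replicates 1 to 3, against 16.1 and 15.7 CPM in Ad-GFP replicates 2 and 3. Its highest library was Ad-GFP replicate 1, at 33.6 CPM, as for Mmp9. The leukocyte gene Ptprc and the macrophage gene Adgre1 had at most 0.156 CPM in any library, and the part of such cells in the Mmp9 result was not tested.

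**Figure D1:**
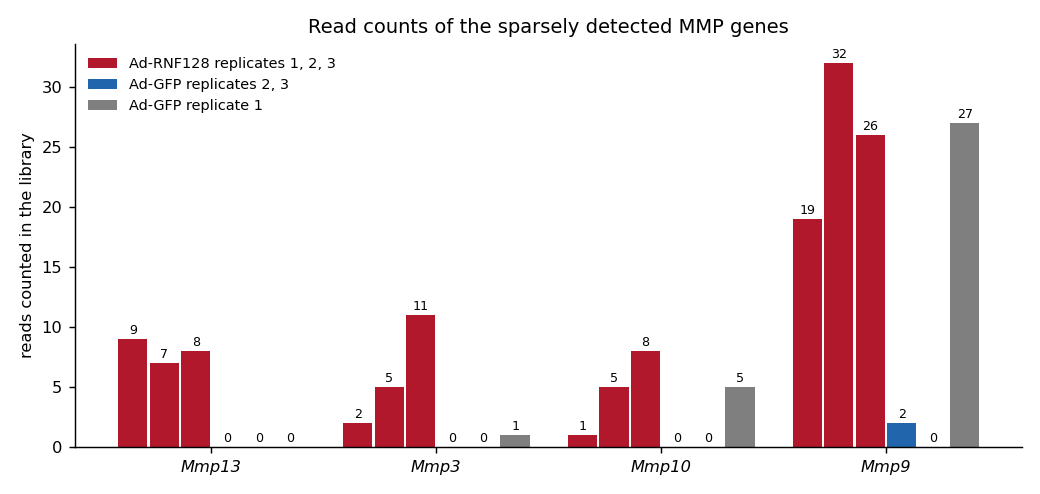
Reads counted per library (vertical axis, linear from 0) for Mmp13, Mmp3, Mmp10 and Mmp9, with bars from left to right for Ad-RNF128 replicates 1 to 3 (red), Ad-GFP replicates 2 and 3 (blue) and Ad-GFP replicate 1 (grey). Mmp13 had 7 to 9 reads in the libraries labelled Ad-RNF128 and 0 in the others, while Ad-GFP replicate 1 held 27 reads of Mmp9 and 5 of Mmp10.

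The membrane-type protease gene Mmp14 (ENSRNOG00000010947), whose product is anchored in the plasma membrane and cuts fibrillar collagen, was at 324, 305 and 356 CPM in Ad-RNF128 replicates 1 to 3, against 436 and 462 CPM in Ad-GFP replicates 2 and 3. All 3 libraries labelled Ad-RNF128 lay below both of these controls. Mmp14 averaged 328 ± 26 CPM (SD, n = 3) in the libraries labelled Ad-RNF128, and the log2 change was -0.61 ± 0.08 (edgeR adjusted p = 7.87e-06). Ad-GFP replicate 1 was at 109.5 CPM, below every other library, and over all 6 libraries the log2 change was -0.39 ± 0.38 (adjusted p = 0.799). The direction was the same in both comparisons, but Ad-GFP replicate 1 spread the Ad-GFP values across the Ad-RNF128 range.

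Mmp2 (ENSRNOG00000016695), gelatinase A, had only 45, 69 and 69 reads in Ad-RNF128 replicates 1 to 3, against 89 and 77 reads in Ad-GFP replicates 2 and 3. In CPM these were 2.63, 3.18 and 3.58, against 4.93 and 3.61, so the groups were separated by a narrow margin. The log2 change was -0.58 ± 0.20 (edgeR adjusted p = 0.0233). This call ended with library totals in place of TMM scaling (adjusted p = 0.0895), with DESeq2 (0.0607), and without Ad-GFP replicate 2 (0.226), Ad-RNF128 replicate 1 (0.0946) or Ad-RNF128 replicate 2 (0.0525), over a range of adjusted p across all its alternatives of 0.0141 to 0.226. Ad-GFP replicate 1 was at 1.22 CPM, again the lowest library in CPM, and with it the log2 change was -0.44 ± 0.38 (adjusted p = 0.76).

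Mmp11 (ENSRNOG00000028344), stromelysin 3, is activated inside the cell by furin-like proteases and is known from stromal cells around tumours. It was at 60.4, 56.7 and 58.4 CPM in Ad-RNF128 replicates 1 to 3, against 37.6 and 43.5 CPM in Ad-GFP replicates 2 and 3. The groups did not overlap, and the spread within the libraries labelled Ad-RNF128 (58.5 ± 1.85 CPM, SD, n = 3) was small beside the gap. The log2 change was 0.37 ± 0.08 (edgeR adjusted p = 0.00145), at percentile 75.5 of the log2 changes of all genes tested. Ad-GFP replicate 1, at 129.8 CPM, was the highest library, and including it turned the log2 change to -1.28 ± 0.88 (adjusted p = 0.7).

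Timp3 (ENSRNOG00000004303), the inhibitor that stays bound to the matrix and also blocks several ADAM and ADAMTS proteases, was at 45.8, 34 and 41.7 CPM in Ad-RNF128 replicates 1 to 3, against 64.2 and 70.6 CPM in Ad-GFP replicates 2 and 3. The groups did not overlap. Timp3 averaged 40.5 ± 5.99 CPM (SD, n = 3) in the libraries labelled Ad-RNF128. Its log2 change of -0.90 ± 0.10 (edgeR adjusted p = 3.39e-06) lay at percentile 4.9 of all genes tested and was the lowest among the 6 tested members. Ad-GFP replicate 1 held 5.32 CPM, far below the rest, and with it the log2 change was -0.44 ± 0.67 (adjusted p = 0.913).

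Timp1 (ENSRNOG00000010208), the secreted inhibitor induced in many inflamed tissues, was at 104, 106 and 96.4 CPM in Ad-RNF128 replicates 1 to 3, against 101 and 90.7 CPM in Ad-GFP replicates 2 and 3. These values overlapped. The log2 change was -0.06 ± 0.07 (edgeR adjusted p = 0.487), and 0.09 with library totals, so its sign depends on the scaling. A difference was not detected, which does not show that the groups were equal. Ad-GFP replicate 1 was the highest library at 162 CPM, and with it the log2 change was -1.05 ± 0.64 (adjusted p = 0.681).

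**Figure D2:**
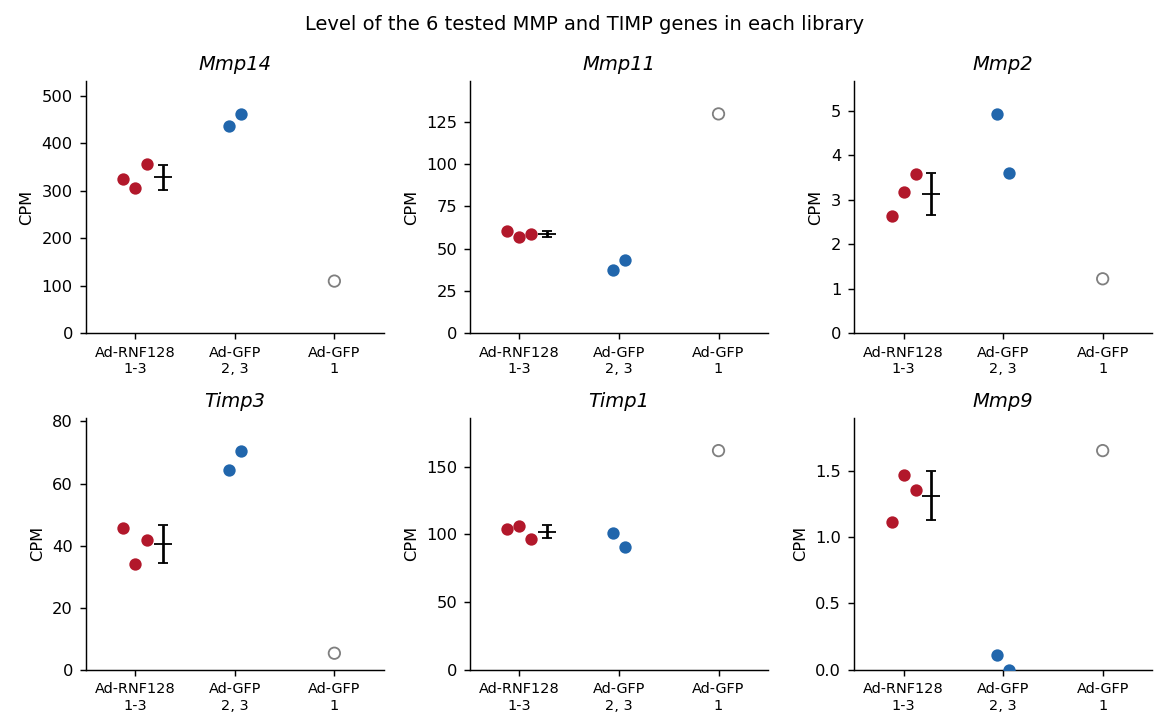
CPM of the 6 tested genes (vertical axes, linear from 0) in the 3 libraries labelled Ad-RNF128 (red, with mean and SD in black), in Ad-GFP replicates 2 and 3 (blue) and in Ad-GFP replicate 1 (open grey). Mmp14, Mmp2 and Timp3 were lower and Mmp11 and Mmp9 higher in the libraries labelled Ad-RNF128 than in Ad-GFP replicates 2 and 3, while Ad-GFP replicate 1 was the lowest or the highest library for each of the 6.

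Across the 6 tested genes Ad-GFP replicate 1 was at an extreme of CPM every time, the lowest library for Mmp2, Mmp14 and Timp3 and the highest for Mmp9, Mmp11 and Timp1. Its level relative to the mean of Ad-GFP replicates 2 and 3 was 0.0789 for Timp3, 0.244 for Mmp14 and 0.286 for Mmp2, and 1.69 for Timp1, 3.2 for Mmp11 and 29.8 for Mmp9. With the TMM scaling of the 6-library fit these ratios were, in the same order, 0.183, 0.565 and 0.665, and 3.92, 7.42 and 69.8. Its TMM-scaled Mmp2 level, 2.6 CPM, then lay among the 2.16, 2.61 and 2.96 CPM of Ad-RNF128 replicates 1 to 3, while the other 5 genes kept it at an extreme. Over all 6 libraries edgeR called 0 of the 6 genes, where 0% of 12863 genes passed at all and 742 (5.77%) had an unadjusted p under 0.05, none of them among these 6. With limma-voom 0 of the 6 were called, against 14 (0.109%) calls over all genes. DESeq2 called none of them but gave Mmp11 no adjusted p, against 386 calls (3.44%) over the 11205 genes given one. CPM values of the groups did not overlap for 5 of the 6 genes against Ad-GFP replicates 2 and 3 (2 higher, 3 lower), where 48.7% of all genes tested were higher and 23.6% lower without overlap. Against all 3 Ad-GFP libraries the values of all 6 overlapped, and those of the untested Mmp13 and Mmp3 did not, although with TMM scaling Mmp3 overlapped too (0.0959 CPM in Ad-RNF128 replicate 1, against 0.13 CPM in Ad-GFP replicate 1). Over the 12863 genes tested there, which leave out Mmp13 and Mmp3, 30.4% were higher and 3.59% lower without overlap.

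**Figure D3:**
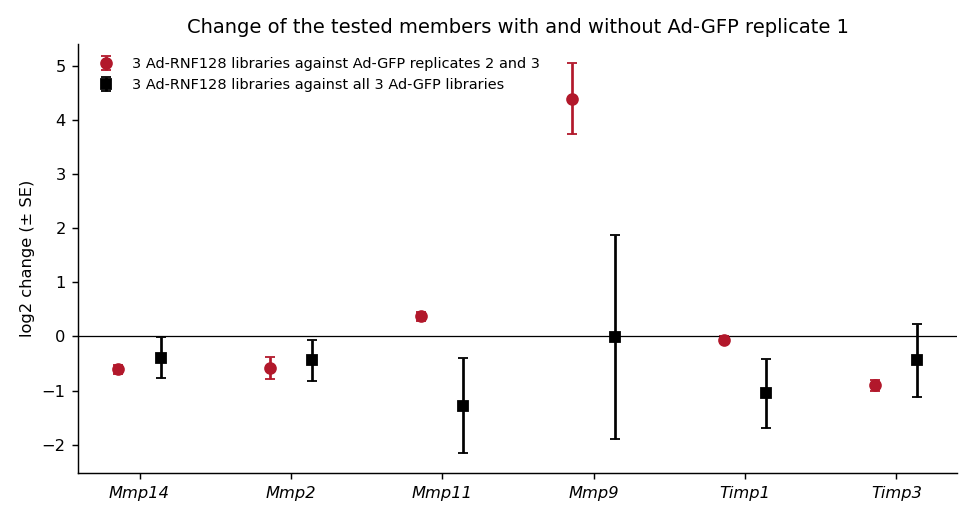
Log2 change ± SE (edgeR) in the libraries labelled Ad-RNF128 relative to Ad-GFP replicates 2 and 3 (red circles) and relative to all 3 Ad-GFP libraries (black squares) for the 6 tested genes. Mmp14, Mmp2 and Timp3 lay below 0 in both comparisons, Mmp11 changed sign, and Mmp9 was at 4.39 in the first and -0.01 in the second.

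Ratios of read counts within a library do not depend on library size or scaling. The products of Mmp9 and Timp1 are known to bind each other as a proenzyme complex. The ratio of Mmp9 to Timp1 reads was 0.0107, 0.0138 and 0.014 in Ad-RNF128 replicates 1 to 3, against 0.0011 and 0 in Ad-GFP replicates 2 and 3 and 0.0102 in Ad-GFP replicate 1. Other pairs were chosen after their values had been seen. Timp3 to Timp1 was 0.441, 0.319 and 0.432 in Ad-RNF128 replicates 1 to 3, against 0.635 and 0.779 in Ad-GFP replicates 2 and 3 and 0.0329 in Ad-GFP replicate 1. It was lower in all 3 libraries labelled Ad-RNF128 than in Ad-GFP replicates 2 and 3, without any scaling. Mmp14 to Timp3, whose product inhibits the Mmp14 enzyme, was 7.07, 8.97 and 8.55 in Ad-RNF128 replicates 1 to 3, against 6.79 and 6.55 in Ad-GFP replicates 2 and 3 and 20.6 in Ad-GFP replicate 1. Mmp14 to Mmp2 was 123, 95.9 and 99.4 in Ad-RNF128 replicates 1 to 3, against 88.4 and 128 in Ad-GFP replicates 2 and 3 and 89.5 in Ad-GFP replicate 1, with overlapping groups.

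The fall of Mmp14, Mmp2 and Timp3 went along with the fibroblast marker sum, which was lower in the libraries labelled Ad-RNF128 than in Ad-GFP replicates 2 and 3 and lowest in Ad-GFP replicate 1, the same order of the 3 sets as for Mmp14 and Timp3. For Mmp2 that order held in CPM and not with TMM scaling. Of the 7 fibroblast markers tested, 0 rose and 4 fell against Ad-GFP replicates 2 and 3, where 28.9% of all genes tested rose and 28% fell. The sum was dominated by Col1a1, at 4016, 3659 and 3970 CPM in Ad-RNF128 replicates 1 to 3, against 17690 and 18266 CPM in Ad-GFP replicates 2 and 3 and 1099.7 CPM in Ad-GFP replicate 1, whereas the surface marker Thy1 was at 305, 287 and 301 CPM, against 224 and 251 CPM and 286 CPM in Ad-GFP replicate 1. The part of cell composition in these results was not tested. Without Ad-RNF128 replicate 3, the library with few cardiomyocyte reads, 5 of the 6 genes were still called, 2 higher and 3 lower. In that fit 7125 of the 13030 genes tested were called, 3716 higher and 3409 lower.

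Among other MMP and TIMP genes, 8 of the 11 with a row were tested, and 4 rose and 2 fell against Ad-GFP replicates 2 and 3 (median log2 change 0.30, against 0.01 over all genes, and 0.46 against 0.17 with library totals). Here and for the lists below, 28.9% of all genes tested rose and 28% fell. Mmp25, a protease held at the surface by a lipid anchor, was at 3.28, 2.63 and 3.64 CPM in Ad-RNF128 replicates 1 to 3, against 0.166 and 0.609 CPM in Ad-GFP replicates 2 and 3 and 2.32 CPM in Ad-GFP replicate 1. It is among the 4 rises but, with 3 and 13 reads in Ad-GFP replicates 2 and 3, passed the low-count filter only through the libraries in which it was high. Its log2 change of 2.80 ± 0.38 is therefore a description, and it was 2.19 without Ad-GFP replicate 2, 4.07 without Ad-GFP replicate 3 and 0.54 over all 6 libraries. Mmp28, epilysin, was at 13.2, 13.8 and 14.9 CPM, against 5.43 and 3.94 CPM (1.43 ± 0.15, adjusted p = 1.13e-06), with 17.9 CPM in Ad-GFP replicate 1 and a log2 change of -0.43 over all 6 libraries (0.62 with library totals). Mmp15, a membrane-type relative of Mmp14, was at 1.64, 1.43 and 1.51 CPM in Ad-RNF128 replicates 1 to 3, against 3.99 and 5.2 CPM in Ad-GFP replicates 2 and 3 (-1.76 ± 0.22, adjusted p = 8.42e-06). Ad-GFP replicate 1 had 1.77 CPM of Mmp15, so that the Ad-RNF128 values lay below all 3 controls, although with it the change of -1.70 did not pass with edgeR (adjusted p = 0.226). DESeq2 called it over all 6 libraries (log2 change -1.90, adjusted p = 0.00111), and the adjusted p of its alternatives there ran from 8.42e-06 without Ad-GFP replicate 1 to 1. Mmp23 was at 2.81, 2.67 and 2.54 CPM, against 3.38 and 3.84 CPM (-0.59 ± 0.20, adjusted p = 0.0175), a call that ended with library totals (0.0637), with DESeq2 (0.0697) and without Ad-GFP replicate 3 (0.143). Ad-GFP replicate 1 held 3.91 CPM of Mmp23, the highest library, and with it the change was -1.17 (adjusted p = 0.681). Mmp1, Mmp7, Mmp8, Mmp21 and Mmp27 were not analysed here.

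The ADAMTS proteases, secreted relatives of the MMPs that cut proteoglycans and procollagens, mostly fell. Of 12 tested, 0 rose and 10 fell against Ad-GFP replicates 2 and 3, with a median log2 change of -0.83, where 28% of all genes tested fell. Adamts8, 1 of the 10, was at 0.292, 0.507 and 0.571 CPM in Ad-RNF128 replicates 1 to 3, against 0.665 and 1.03 CPM. It passed the low-count filter only through the controls in which it was high, so its fall is a description. With library totals 1 rose and 8 fell, where 5367 of 13173 genes rose and 2409 fell. Adamts20 was at 6.26, 6.31 and 4.88 CPM in Ad-RNF128 replicates 1 to 3, against 39.6 and 33.6 CPM in Ad-GFP replicates 2 and 3 (log2 change -2.80 ± 0.11, edgeR adjusted p = 2.87e-11). Adamts12 was at 62.9, 53.2 and 51.4 CPM, against 278 and 249 CPM (-2.39 ± 0.08, adjusted p = 4.84e-12). Ad-GFP replicate 1 held 0.367 CPM of Adamts20 and 0.428 CPM of Adamts12, below every other library, and over all 6 libraries neither passed (adjusted p of 0.681 and 0.745). The fibroblast marker sum, dominated by Col1a1, moved in the same direction as these genes, while Thy1 was higher in CPM in Ad-RNF128 than in Ad-GFP replicates 2 and 3. The part of cell composition was not tested.

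Of the membrane-bound ADAM proteases, which shed cell-surface proteins, 2 rose and 5 fell of 8 tested against Ad-GFP replicates 2 and 3 (median -0.45, and -0.29 with library totals). The shares over all genes tested were 28.9% and 28%, and their median was 0.01, or 0.17 with library totals. Adam9 was at 50.6, 41.7 and 46.9 CPM in Ad-RNF128 replicates 1 to 3, against 89.2 and 94.6 CPM in Ad-GFP replicates 2 and 3 (log2 change -1.14 ± 0.08, edgeR adjusted p = 2.32e-08), and Adam12 had a log2 change of -0.91 ± 0.06. Ad-GFP replicate 1 held 0.673 CPM of Adam9 and 7.34 CPM of Adam12, below every other library, and with it the changes were -0.58 and -0.36 (adjusted p of 0.946 and 0.975). Adam15 was at 103, 94 and 109 CPM in Ad-RNF128 replicates 1 to 3, against 61 and 65.4 CPM in Ad-GFP replicates 2 and 3 (0.54 ± 0.08, adjusted p = 5.01e-05). Adam15 was at 346 CPM in Ad-GFP replicate 1, and with it the change turned to -1.76 (adjusted p = 0.681). Adam17, which releases tumour necrosis factor, was at 57.6, 61.3 and 63.6 CPM, against 51.9 and 43.1 CPM (0.21 ± 0.08, adjusted p = 0.0389). The Adam17 call ended with DESeq2 (0.0741) and without Ad-GFP replicate 3 (0.374), Ad-RNF128 replicate 2 (0.0662) or Ad-RNF128 replicate 3 (0.0933). Adam17 was at 2.38 CPM in Ad-GFP replicate 1, and its change over all 6 libraries was 0.70 (adjusted p = 0.85).

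Genes that activate or restrain MMPs were split, with 5 higher and 4 lower of 10 tested against Ad-GFP replicates 2 and 3 (median 0.53, but 0.08 with limma-voom and 0.06 without Ad-RNF128 replicate 3, with 5 rises in each). Beside this, 28.9% of all genes tested were higher and 28% lower. With limma-voom 3770 of 13173 genes were higher, and without Ad-RNF128 replicate 3 it was 3716 of 13030. The protease inhibitor gene Serpine2, which blocks plasminogen activators and thrombin, was at 37.2, 33.8 and 41.3 CPM in Ad-RNF128 replicates 1 to 3, against 11 and 10.6 CPM in Ad-GFP replicates 2 and 3 and 7.64 CPM in Ad-GFP replicate 1. All 3 libraries labelled Ad-RNF128 lay above all 3 controls, and the log2 change was 1.64 ± 0.10 (edgeR adjusted p = 6.63e-09), or 1.35 over all 6 libraries (adjusted p = 0.449). Plaur, the urokinase receptor gene, was at 72.9, 73.5 and 77.9 CPM in Ad-RNF128 replicates 1 to 3, against 37.7 and 42.1 CPM in Ad-GFP replicates 2 and 3 (0.75 ± 0.08, adjusted p = 1.62e-06). In Ad-GFP replicate 1 it was at 128 CPM, and over all 6 libraries the change turned to -0.91 (adjusted p = 0.797), or 0.11 with library totals. Lrp1, an endocytic receptor that clears MMPs and TIMPs, had a log2 change of -0.72 ± 0.07, and Plat, tissue plasminogen activator, -0.46 ± 0.07. Ad-GFP replicate 1 was the lowest library for both, at 212 CPM of Lrp1 and 5.75 CPM of Plat, and with it the changes were -0.38 and 0.03 (adjusted p of 0.882 and 0.996). Plau was not analysed here.

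Of the AP-1, ETS and Runx transcription factors known to act on MMP promoters, 5 rose and 3 fell of 10 tested against Ad-GFP replicates 2 and 3 (median 0.06). All genes tested had 28.9% rises and 28% falls. With library totals 5 rose and 1 fell (median 0.21), where 5367 of 13173 genes rose and 2409 fell (median 0.17). Without Ad-RNF128 replicate 1, 1 fell, where 3215 of 13079 genes fell. Without Ad-RNF128 replicate 3, 1 fell, where 3409 of 13030 genes fell. Ets2 was at 80.7, 85.8 and 80.9 CPM in Ad-RNF128 replicates 1 to 3, against 24.6 and 24.7 CPM in Ad-GFP replicates 2 and 3 and 37.4 CPM in Ad-GFP replicate 1 (log2 change 1.59 ± 0.07, edgeR adjusted p = 1.81e-10, without Ad-GFP replicate 1, and 0.70, adjusted p = 0.756, with it). Etv4 was at 86.3, 89.8 and 96.2 CPM, against 25.5 and 30.2 CPM (1.54 ± 0.09, adjusted p = 2.59e-09), but at 436 CPM in Ad-GFP replicate 1, where its change turned to -2.13 (adjusted p = 0.699). The AP-1 gene Fosb had a log2 change of -0.57 ± 0.22 (adjusted p = 0.0405), a call that ended with library totals (0.126), DESeq2 (0.103) and without Ad-GFP replicate 3 (0.472), Ad-RNF128 replicate 1 (0.103) or Ad-RNF128 replicate 3 (0.104). Fosl2 had -0.36 ± 0.06. In Ad-GFP replicate 1 Fosb was at 3.55 CPM and Fosl2 at 99.1 CPM, and over all 6 libraries their changes were -1.08 and -0.52 (adjusted p of 0.681 for both). The other AP-1 genes called were higher and are named after their values had been seen. Fosl1 was at 83, 93 and 97.7 CPM in Ad-RNF128 replicates 1 to 3, against 31.1 and 32.8 CPM in Ad-GFP replicates 2 and 3 (1.36 ± 0.09, adjusted p = 5.74e-09). Fos was at 4.91, 5.71 and 6.02 CPM, against 3.05 and 3 CPM (0.72 ± 0.18, adjusted p = 0.00307). Jun was at 113, 119.5 and 121 CPM, against 92.4 and 91.2 CPM (0.21 ± 0.07, adjusted p = 0.0146), a call that ended without Ad-GFP replicate 2 (0.0783). Ad-GFP replicate 1 held 144 CPM of Fosl1, 1.1 CPM of Fos and 122 CPM of Jun, and with it the changes were -0.70, 0.79 and -0.56 (adjusted p of 0.905, 0.681 and 0.803). The AP-1 genes thus did not move one way. Junb was not analysed here. Over all 6 libraries 0 genes of any of the 5 lists passed with edgeR, and 1, Mmp15, with DESeq2. Among the named genes, DESeq2 gave no adjusted p there for Mmp28, Adam15, Plaur, Etv4 and Fosl1.

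**Figure D4:**
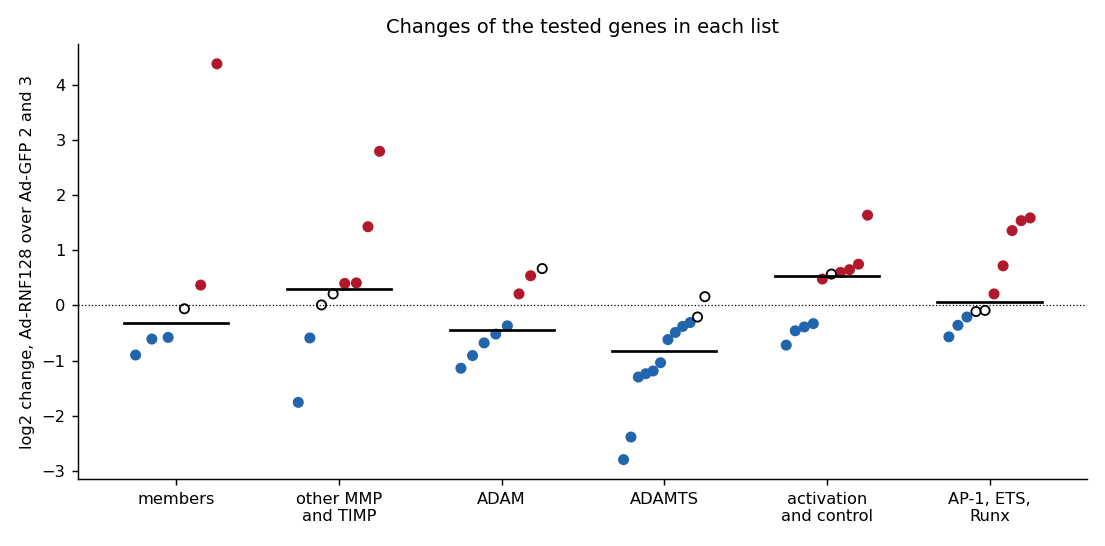
Log2 change (edgeR) of each tested gene of the members and of 5 other lists in the libraries labelled Ad-RNF128 over Ad-GFP replicates 2 and 3. Red points rose and blue points fell at an adjusted p under 0.05, open points did not pass, black bars are list medians and the dotted line is the median of all genes (0.01). The ADAMTS list had 10 falls and no rise, while the members had 2 rises and 3 falls. All genes tested had 28.9% rises and 28% falls.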

How the data were processed

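The authors deposited a table of read counts per gene for each library, made with HISAT2 (no version listed) and HTSeq 0.13.5 on build mRatBN7.2, per the submitters' processing notes. Strand setting and annotation release are not given in the sources used here. The deposited column of Ad-GFP replicate 1 was taken by its values to hold estimated counts of the authors, since 1 of its values was not whole, and was rounded. Of 18077 rows, 106 repeat an ID and were kept. Counts were scaled to CPM over library totals, and differences were tested with edgeR 4.0.16 in R 4.3.3 (filterByExpr with a minimum count of 10, TMM scaling, quasi-likelihood F-test, Benjamini-Hochberg over all genes, threshold 0.05). Log2 changes set Ad-RNF128 over Ad-GFP, and the SE follows from the log2 change and its F statistic. Intervals are exact 95% Clopper-Pearson limits on summed counts and cover counting error only. Folds over the floor of 3 counts take the Ad-RNF128 reads as exact and are not lower limits. Groups come from the sample titles. With 2 controls the spread is pooled over both groups, and when 1 control is left that library is assumed to vary like the others.

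The members, lists, comparisons and alternatives were chosen with earlier results of these data known, including the choice to set Ad-GFP replicate 1 apart. All members are described, and of each list the 2 largest rises and 2 largest falls among genes that passed with a mean CPM of at least 1 are named, beside Fosl1, Fos and Jun, which were added after their values were seen. Alternatives were median-of-ratios scaling, library totals, DESeq2 1.42.0, limma-voom (limma 3.58.1), other low-count filters, a replicate block, a log2 change of at least 1, TMM-scaled levels and leaving out each library. Fits were tested on simulated data. Ratios with Timp2 were not computed. Promoters are RefSeq's on GRCr8, a build other than that of the counts, and no coordinates were carried between them. Levels were not compared between genes, since no transcript lengths were used.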

Additional observations from a re-analysis of the deposited data

How the results depend on the processing

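Against Ad-GFP replicates 2 and 3, the calls of Mmp11, Mmp14 and Timp3 held under every alternative run, apart from the requirement of a log2 change of at least 1, which left 1 member (Mmp9) and 1601 genes in all. Calls of Mmp9 are no support, since it passed the filter only through the libraries in which it was high, and the stricter filter left it untested. Without a low-count filter 8 of 9 members were called, beside 7744 of 18021 genes. The calls added there were of Mmp3, Mmp10 and Mmp13, which had 0 reads in Ad-GFP replicates 2 and 3, so they are no support. Members called ran from 4 to 5 when an Ad-RNF128 library was left out, and all genes called from 6747 to 7125. Library totals gave 69% of calls as higher, against 50.8%, moved the median of all genes from 0.01 to 0.17 and turned Timp1 to 0.09. Over all 6 libraries, where TMM gave Ad-GFP replicate 1 a factor of 0.47, the median of all genes was -0.02, 0.35 with library totals and -0.16 with median-of-ratios scaling. Library totals called 8 genes, DESeq2 386 and limma-voom 14, none a member, although DESeq2 gave Mmp11 no adjusted p. Leaving out a library gave 0 to 5 members and 0 to 7501 genes, the upper values without Ad-GFP replicate 1 and 0 without any other. There Mmp9 turned positive with library totals (1.18), limma-voom (2.38) and no filter (0.16), and ran from -0.66 to 4.39 when a library was left out, while Mmp11 ran from -1.69 to 0.37. The cause was not tested. Same-numbered libraries correlated by -0.169, 0.012 and -0.127 over all 6 libraries, so the numbers were not taken as pairs. A replicate block gave 4 members and 7795 genes without Ad-GFP replicate 1 (adjusted p of 0.0756 for Mmp2 and, among other named genes, 0.0863 for Fosb), and 0 members and 0 genes over all 6 libraries, with Mmp9 at 2.23. Depth limits Mmp3, Mmp10 and Mmp13, at or below 11 reads a library.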
